A study of Mus musculus with 6 samples.

Results

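Ankrd1, Ankrd2 and Ankrd23 make up the muscle ankyrin repeat family, and Ttn encodes titin, the protein they bind. These 4 genes were chosen by name out of 22350 protein-coding genes, with earlier results of these data known. The study had already picked out Ankrd1 as a Setdb1 target with H3K9me3. All 4 were followed through every region listed for Setdb1 and for H3K9me3 in their gene bodies and in the 100 kb on each side. The cells were C2C12 myoblasts in growth medium. C2C12 is an established mouse line that divides in serum and fuses into myotubes when serum is withdrawn. Setdb1 methylates lysine 9 of histone H3, and H3K9me3 is the trimethylated form of that lysine, so the question was whether the enzyme and its mark lie at these muscle genes while the cells are still dividing. The labels name 6 libraries, 1 per group: H3K9me3 and Setdb1 from untreated cells, Setdb1 with DMSO (labelled as no treatment), Setdb1 after 24 h in Wnt3a, a secreted signal, at 50 ng/ml, and inputs for both antibodies. Analysed here were the lists of the H3K9me3 library and a single Setdb1 list, whose table does not name its library and which the study assigns to proliferating cells. No effect of Wnt3a was looked at. With 1 library per group there was no spread between cultures, so no difference was tested and all values describe these libraries. The lists hold no expression values, so neither the identity of the cells nor the activity of the genes could be checked.

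Titin is a giant elastic protein that spans the sarcomere from the Z-disc to the M-band. Its flexible I-band part holds a docking region, called N2A, to which the muscle ankyrin repeat proteins attach, and when muscle is stretched or injured these proteins can also enter the nucleus and act as cofactors of transcription. H3K9me3 is a mark of silent chromatin. In dividing myoblasts many sarcomere genes are still quiet.

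The lists held 1191 Setdb1 sites and 80480 narrow H3K9me3 peaks, both called with MACS, and 23268 broad H3K9me3 islands called with SICER, all on the mouse genome mm9. A tag is a sequenced read counted in a region, and the fold is its enrichment over the input as MACS gave it. The sites held 45922 Setdb1 tags and the peaks 2072675 H3K9me3 tags in all. Total reads of the libraries were not used here. Around the 4 genes there were 2 Setdb1 sites, 54 H3K9me3 peaks and 13 islands, and they were spread very unevenly. Ankrd1 had 1 site, 9 peaks and 4 islands. Ankrd23 had 1 site, 4 peaks and 1 island. Ttn had 41 peaks and 8 islands with no Setdb1 site, and Ankrd2 had nothing at all. Having a Setdb1 site within 100 kb of the gene body, as Ankrd1 and Ankrd23 did, was the case for 15.5% of all protein-coding genes, and 10.2% had one that lay in an H3K9me3 region, as both did. A MACS peak in that range was common (90.4% of genes), and so was an island (70.9%), whereas 8.79% of genes were without any listed region, like Ankrd2.

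The regions that carry these results are shown as 300 bases around their summits (mm9, plus strand). CpG dinucleotides are in capitals because the Ankrd1 stretch differs from the others in CpG content. They are the Setdb1 site upstream of Ankrd1 (chr19:36197884-36198183), the Setdb1 site in the Ankrd23 window, which lies next to Cnnm3 (chr1:36568151-36568450), and the strongest H3K9me3 peak of Ttn (chr2:76581782-76582081), which lies inside its largest exon. Since Ttn is on the minus strand, its sequence is printed on the strand opposite to the transcript.
Ankrd1 Setdb1 summit: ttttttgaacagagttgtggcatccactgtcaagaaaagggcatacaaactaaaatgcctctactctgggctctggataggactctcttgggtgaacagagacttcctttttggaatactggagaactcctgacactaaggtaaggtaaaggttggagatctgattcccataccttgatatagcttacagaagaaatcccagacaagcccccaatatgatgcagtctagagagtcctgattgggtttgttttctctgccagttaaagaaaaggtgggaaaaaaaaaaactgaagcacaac
Cnnm3 Setdb1 summit: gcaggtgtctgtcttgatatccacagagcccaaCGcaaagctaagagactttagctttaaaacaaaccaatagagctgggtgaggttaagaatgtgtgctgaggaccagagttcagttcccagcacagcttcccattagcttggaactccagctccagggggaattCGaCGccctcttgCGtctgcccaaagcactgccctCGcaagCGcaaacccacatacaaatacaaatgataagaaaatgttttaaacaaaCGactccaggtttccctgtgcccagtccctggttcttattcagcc
Ttn H3K9me3 summit: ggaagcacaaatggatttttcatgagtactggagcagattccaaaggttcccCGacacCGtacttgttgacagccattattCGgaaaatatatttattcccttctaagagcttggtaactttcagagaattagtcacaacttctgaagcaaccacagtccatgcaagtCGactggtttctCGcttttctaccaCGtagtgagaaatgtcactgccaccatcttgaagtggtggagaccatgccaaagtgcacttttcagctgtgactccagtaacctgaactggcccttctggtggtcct
The Ankrd1 stretch holds 0 CpGs. The Cnnm3 stretch holds 7 and the Ttn stretch 6.

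Ankrd1 (ENSMUSG00000024803.8, chromosome 19 from 36186455 to 36194334, minus strand), whose protein is induced by stretch and found in sarcomere and nucleus, had its Setdb1 site in the intergenic sequence upstream. The site ran from 36197416 to 36198574, which is 3.08 to 4.24 kb upstream of the single annotated start, with its summit at 3.70 kb. It held 113 tags (exact 95% Poisson interval 93.1 to 136, which covers counting error only) and was enriched 12.29-fold. Among the 1191 Setdb1 sites it stood 11th by tags, 12th by MACS score, 33rd by length and 69th by fold. A Setdb1 site within 10 kb of a start was found at 2.48% of protein-coding genes, and one that also lay in an H3K9me3 region at 1.32%.

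The H3K9me3 peak enclosed the Setdb1 site on both sides. It ran from 36196159 to 36199737 over 3579 bp, from 1.83 to 5.40 kb upstream of the start, and extended 1257 bp beyond the site towards the gene and 1163 bp away from it. Such full enclosure was seen at 352 of the 774 Setdb1 sites that overlapped a MACS peak, or 45.5%. The peak held 282 tags (250 to 317) and was enriched 10.86-fold, with 1.42% of all H3K9me3 peaks higher by fold and 0.203% by tags. Its false discovery rate was 1.82%. A limit of 1%, which the Setdb1 list meets throughout, is met by 1.04% of all H3K9me3 peaks and by none of the 54 at the 4 genes. Its share of the 514 tags in all peaks of the Ankrd1 window was 54.9%. The SICER island ran from 36196201 to 36200000. At 3.80 kb it was short, as 76.3% of islands were longer, and its edges differed from those of the MACS peak by 42 bp on the gene side and 263 bp on the far side. The Setdb1 and H3K9me3 summits were 348 bp apart, with the H3K9me3 summit closer to the gene. The median distance was 179 bp over the 774 sites, and 28.3% of them had a larger one.

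**Figure D1:**
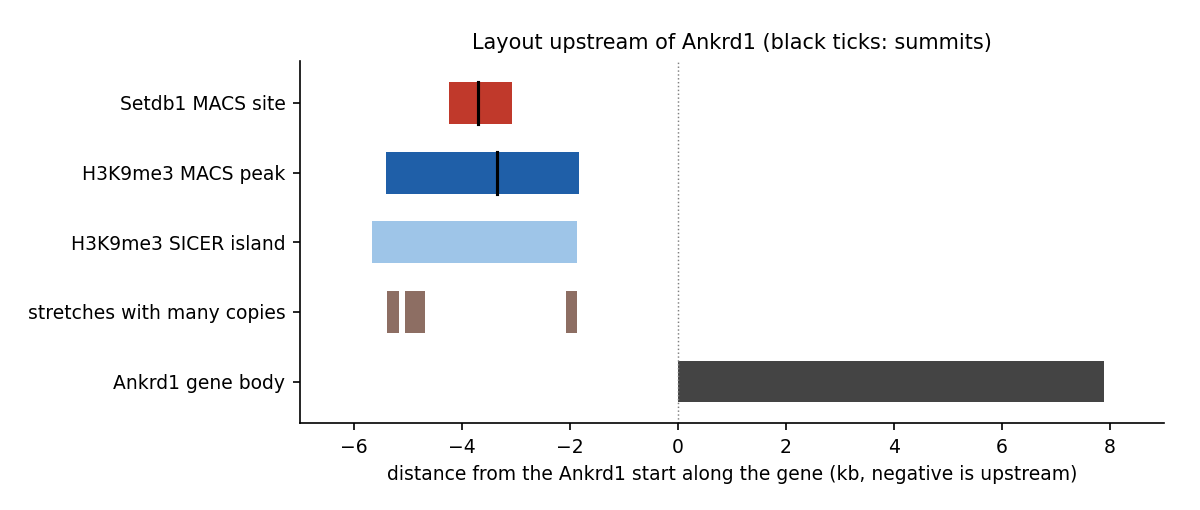
Layout of the listed regions upstream of Ankrd1, drawn to scale against the distance from the gene start in kb. Each bar is the extent of 1 feature: the Setdb1 site, the H3K9me3 MACS peak, the SICER island, the 3 stretches of the peak with 100 or more matches elsewhere in the genome, and the gene body, with black ticks at the summits. The Setdb1 site lies inside the peak and the island, clear of the 3 stretches, and nothing is listed over the gene itself.

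The gene body and the start of Ankrd1 were free of listed regions, and the nearest edge of H3K9me3 was 1.83 kb from the start. The other 8 peaks of the window were weaker, with 14 to 71 tags and 4.81- to 7.56-fold enrichment. The strongest of them by fold lay 25.5 kb upstream, with 35 tags, in an island of 4.4 kb. On the other side, 1 peak of 15 tags lay 10.0 kb downstream of the start, past the end of the gene, and 3 peaks lay in introns of Htr7, a serotonin receptor gene. Rpp30, a subunit gene of RNase P and the nearest gene on that side, had no region in its body. The next gene upstream, Pcgf5, which encodes a Polycomb protein, was 255.5 kb from the Setdb1 site, and the nearest other Setdb1 site was 0.254 Mb away. With 4.33 peaks per 100 kb and 9.43% of its bases in islands, the Ankrd1 window was above the medians of all protein-coding genes (1.88 peaks and 2.44%), and 14.2% of genes were higher by peaks and 13.7% by islands.

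The sequence of the upstream site was poor in CpG. In 250 bp to either side of the summit it had 39.9% GC and 1 CpG, an observed to expected ratio of 0.051. The Setdb1 sites in H3K9me3 regions had median values of 44.3% GC and a ratio of 0.167 over the same flanks, and 83.3% of them were richer in GC. The GC of the Ankrd1 site depended on the flank, at 43.8% in 100 bp to either side of the summit (0 CpGs) and 40.7% over the whole site (2 CpGs). The whole H3K9me3 peak of Ankrd1 had 42.7% GC and a ratio of 0.171. The letters of the E-box (CANNTG, bound by myogenic factors), of the M-CAT element (CATTCC, bound by TEAD factors) and of the TCF/LEF core (CTTTGA, the reader of Wnt signals) were searched on both strands of the 300 bases shown. None was found at Ankrd1, while 80.9%, 13.8% and 18.7% of all Setdb1 summits held a match, in that order. The promoter of Ankrd1 (250 bases before to 50 after the start) held 1 E-box and 2 M-CAT matches, in a genome in which 69.6% and 13.4% of protein-coding promoters hold at least 1. No promoter of the 4 genes held the TCF/LEF letters, which 15.1% of promoters do.

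Because only uniquely aligned reads had been kept, the copy number of this sequence bears on its counts. All 50-base words of the Setdb1 site occurred once in the genome. Over all H3K9me3 peaks of the Ankrd1 window together, 98.5% of such words did. By looser matching, the H3K9me3 peak around the site was mixed. A search with BLAST (at least 70% identity over 50 bp or more) found 3 stretches with 100 or more matches elsewhere, 794 bp in all or 22.2% of the peak. They lay 1012 bp from the Setdb1 site on the gene side, and 442 and 927 bp from it on the far side. No base of the Setdb1 site had more than 49 matches in the genome, and 56.3% of its bases had none. Within the 300 bases at its summit the highest number was 16. The 300 bases at its summit had 0 matches on the rest of chromosome 19, as was the case for 25.1% of the 820 Setdb1 sites in H3K9me3 regions. In 64.9% of those sites the summit had 10 or more matches on that chromosome. The part of nearby repeats in the H3K9me3 of Ankrd1 was not tested.

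**Figure D2:**
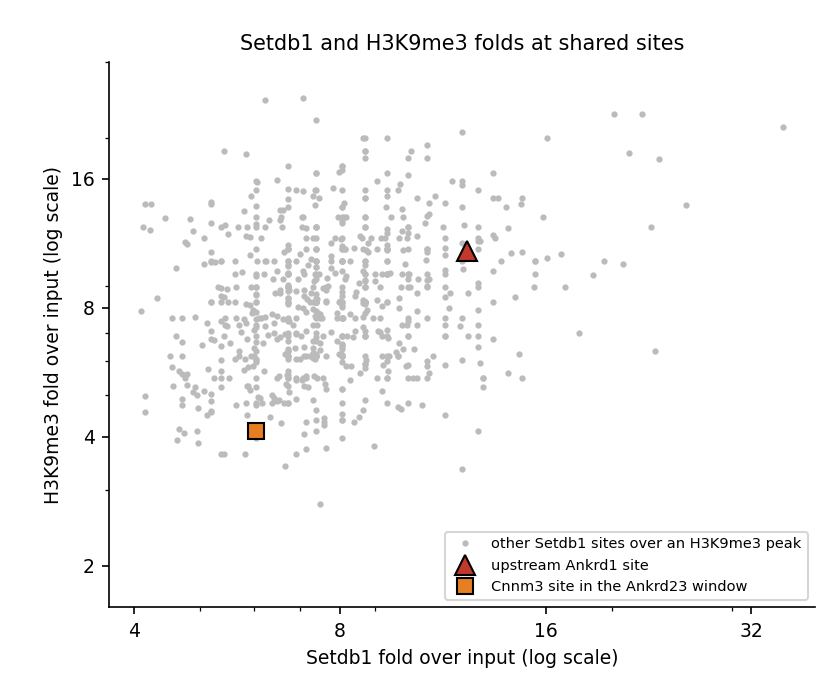
Setdb1 fold over input against H3K9me3 fold over input, both on log axes, for the 774 Setdb1 sites that overlap an H3K9me3 MACS peak. Each grey point is 1 site. The Ankrd1 site (triangle) is at 12.29- and 10.86-fold, the Cnnm3 site of the Ankrd23 window (square) at 6.04- and 4.12-fold.

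Some other genes had an upstream site of similar fold and layout. Among 95 protein-coding genes with a Setdb1 site that had its summit 1 to 10 kb upstream of a start and overlapped both a peak and an island, those closest to Ankrd1 were Col15a1, Chchd6 and Vgll4. Likeness was the distance in log2 Setdb1 fold, log2 H3K9me3 fold, log2 distance to the start and log2 island length. Tags were left out of it, and Ankrd1 had more of them. The sites at Col15a1, Chchd6 and Vgll4 held 59, 26 and 34 Setdb1 tags, against 113 at Ankrd1. Their peaks held 185, 56 and 71 H3K9me3 tags, against 282. Col15a1, a collagen gene, was nearest (0.50), with a 12.08-fold Setdb1 site 4.52 kb upstream, an 11.37-fold H3K9me3 peak and an island of 5 kb. Chchd6 (0.67), a gene of mitochondrial cristae, had a 9.91-fold site 4.71 kb upstream and a 13.06-fold peak. Vgll4 (0.73), which encodes a partner of the TEAD factors, had a 9.39-fold site 5.27 kb upstream and a 10.99-fold peak. By Setdb1 fold, 8 of the 95 genes were above Ankrd1.

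Ankrd23 (ENSMUSG00000067653.5, chromosome 1 from 36587379 to 36592584, minus strand), the diabetes-related member of the family, had no region in its body or near its start. The Setdb1 site of its window ran from 36568018 to 36568543 and belonged by position to another gene. Its summit was 411 bp upstream of the start of Cnnm3, which encodes a transmembrane protein of magnesium transport, and 24.3 kb from the start of Ankrd23. The site was weak: 25 tags (16.2 to 36.9), 6.04-fold enrichment and rank 869 of 1191 by fold. Its H3K9me3 peak had 13 tags (6.92 to 22.2), was enriched 4.12-fold and covered 65.2% of the site, with a false discovery rate of 5.41%, and no island lay over it. By fold, 94.9% of all H3K9me3 peaks were higher. The upstream Ankrd1 site exceeded it 2.03 times by Setdb1 fold, 4.52 times by Setdb1 tags and 21.7 times by H3K9me3 tags. The regions also differed in length, at 1159 against 526 bp for Setdb1 and 3579 against 350 bp for H3K9me3. Per kb there were 97.5 against 47.5 Setdb1 tags and 78.8 against 37.1 H3K9me3 tags. The intervals of the raw tags did not overlap, but they cover counting error only and test no difference. In base composition the Cnnm3 site also differed, with 49.3% GC and 16 CpGs in 250 bp to either side of the summit (ratio 0.534).

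The other 3 peaks of the Ankrd23 window were remote. One, of 27 tags and 5.50-fold enrichment, lay 80.9 kb downstream of the start. The others had 24 tags (5.50-fold) and 22 tags (7.56-fold) and lay 87.9 and 90.6 kb upstream in introns of Fam178b, the stronger one in the only island of the window (2.2 kb). Ankrd39, the nearest gene upstream and also a gene of ankyrin repeats, had no Setdb1 site within 10 kb of its start and no region in its body. At 1.95 peaks per 100 kb the window was close to the median of 1.88, with 47.6% of genes higher, and at 1.07% of bases in islands it was below the median of 2.44%.

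Ankrd2 (ENSMUSG00000025172.2, chromosome 19 from 42110528 to 42119600, plus strand), the family member known from slow skeletal muscle, had no Setdb1 site, no H3K9me3 peak and no island within 100 kb. The nearest peak was 175 kb from the gene body and weak (15 tags, 5.06-fold). The nearest island was 173 kb from it, and the nearest Setdb1 site 522 kb (24 tags, 10.07-fold). Its direct neighbours, Ubtd1 and Hoga1, lay in the same empty stretch. Of the 50-base words of the Ankrd2 window, 96.6% occurred once in the genome, against 89.5% in 217 stretches of 10 kb taken at even steps along the chromosomes. The values were 92.2% for the window of Ankrd1, 97.6% for Ankrd23 and 96.6% for Ttn. The paralogs thus differed from Ankrd1 in these lists, at Ankrd2 by having no region and at Ankrd23 by having none closer than 18.8 kb to the gene body. Ankrd1 had been chosen with its site known. Of all protein-coding genes, 2.48% had a Setdb1 site and 32.8% an H3K9me3 peak within 10 kb of a start, so lacking them was the common state.

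**Figure D3:**
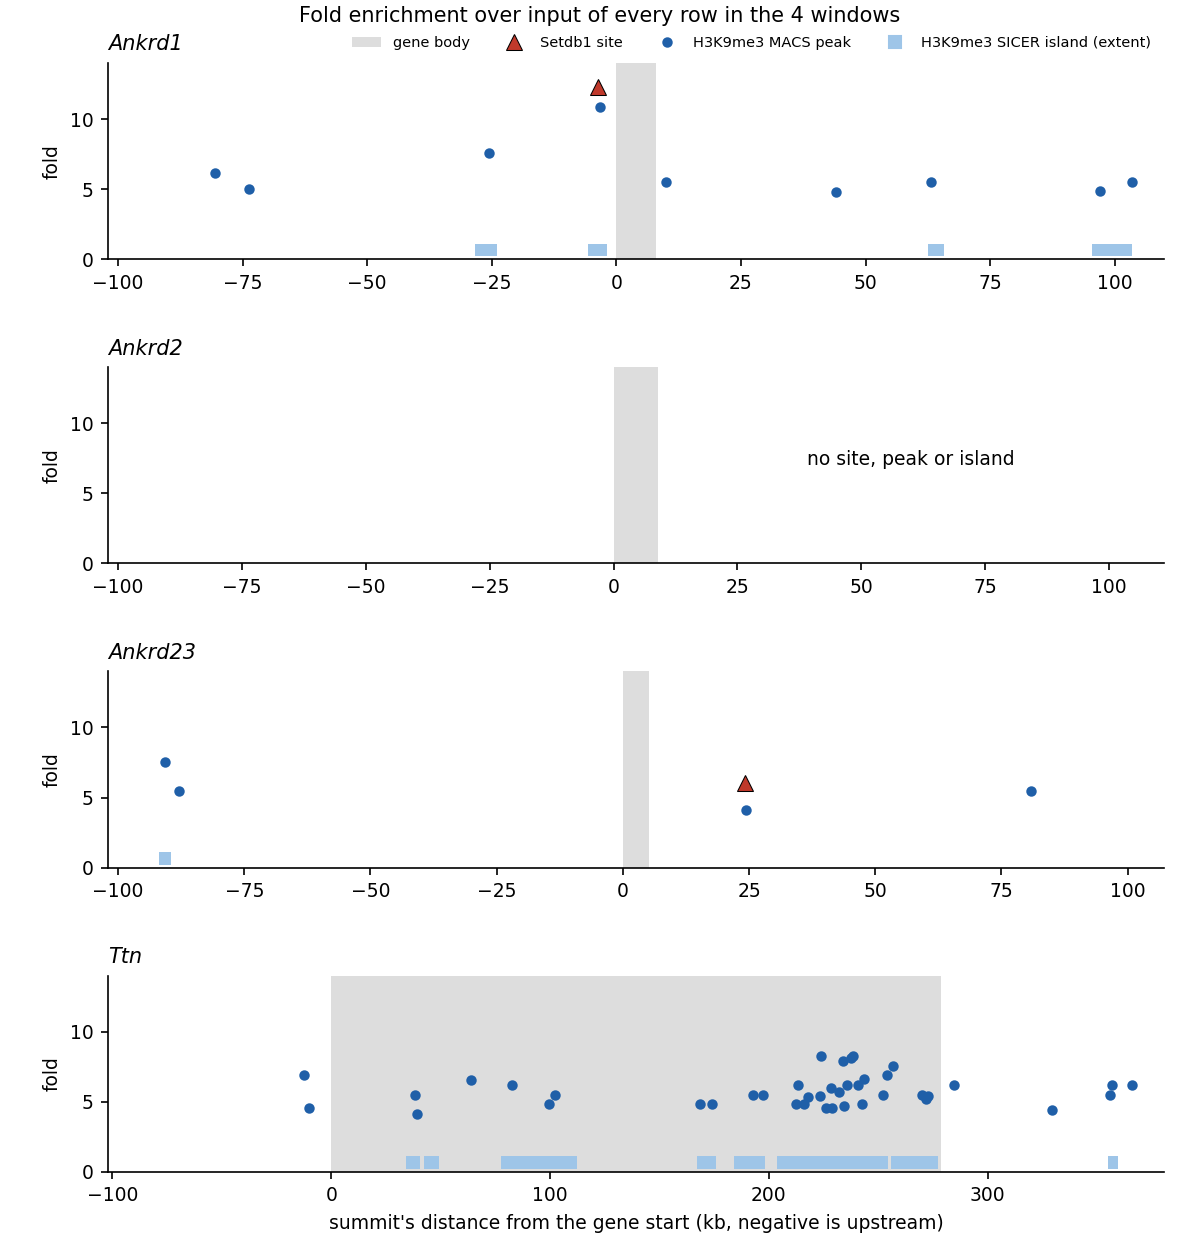
Every listed region in the gene bodies and 100 kb around Ankrd1, Ankrd2, Ankrd23 and Ttn, by distance from the gene start in kb (x axis) and fold over input (y axis). Triangles are Setdb1 sites, points are H3K9me3 MACS peaks, pale bars are SICER islands (extent only, with no fold) and the grey band is the gene body. Ankrd1 has its 2 highest symbols just upstream of the start, Ankrd2 is empty, and most peaks of Ttn lie in the gene body.

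Ttn (ENSMUSG00000051747.7, chromosome 2 from 76542037 to 76820604, minus strand) showed the opposite layout: much H3K9me3 in the gene and no Setdb1. The nearest Setdb1 site was 722 kb from the gene body (34 tags, 6.76-fold). The body of 278.6 kb held 34 peaks with 958 tags in all and 7 islands over 143.4 kb, or 51.5% of it. Each peak was modest, with 11 to 88 tags (median 18) and 4.12- to 8.25-fold enrichment, so none reached the 282 tags and 10.86-fold of the upstream Ankrd1 peak. The density was 12.2 peaks per 100 kb. Of 2399 protein-coding genes of 100 kb or more, whose median was 1.62, 86 were denser (3.58%), and 78 had a larger share of the body in islands (3.25%). Ttn has 16 annotated starts, and distances were measured from the outermost one, which was outside these regions. The places of the other starts are not reported here. The peak nearest to the outermost start lay 9.95 kb upstream (18 tags, 4.56-fold), and the nearest island 34.4 kb into the gene. Plekha3, the nearest gene past the end of Ttn, had no region in its body, and Ccdc141, the nearest upstream, had 2 peaks and no island.

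**Figure D4:**
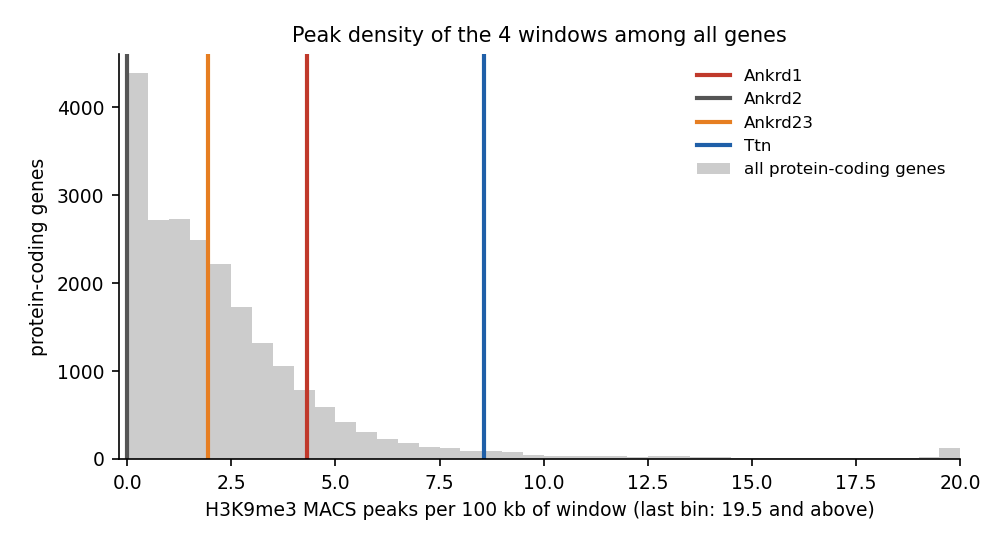
Number of protein-coding genes (y axis, grey bars) by H3K9me3 MACS peaks per 100 kb of gene body and 100 kb around (x axis, bins of 0.5). Vertical lines mark Ankrd1 at 4.33, Ankrd2 at 0, Ankrd23 at 1.95 and Ttn at 8.57 peaks per 100 kb, against a median of 1.88.

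The peaks of Ttn lay on its exons. The summit was in an exon for 32 of 34 peaks, or 94.1% (exact 95% binomial interval, Clopper-Pearson, 80.3 to 99.3%, counting error only, and neighbouring peaks are not independent), although exons make up 41.9% of the gene. Of all 29400 peaks with a summit in a protein-coding gene, 8.59% had it in an exon, close to the 7.75% of these bases that are exonic. Per 100 kb of sequence, Ttn had 27.4 summits in exons and 1.24 in introns, against 3.28 and 2.93 over all protein-coding genes. In number, no other protein-coding gene had more than 17 peaks with the summit in an exon, and 1755 genes had any. Ttn has 116.8 kb of exon sequence, and these counts per gene were not scaled for exon length. The bases behaved likewise: 15.3% of exon bases and 1.63% of intron bases of Ttn were in a peak, and 73.3% and 35.7% in an island. Of the 347 exons of its longest transcript, 29 overlapped a peak and 201 an island.

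These peaks were concentrated towards the end of the gene, which encodes the A-band and M-band parts of titin. In 3 equal stretches of 92.9 kb counted from the start, there were 4, 4 and 26 peaks with 85, 57 and 816 tags, and islands covered 30.4%, 32.4% and 91.6%. Exons too are dense there and take 67.2% of the last stretch, against 33.4% and 25.3% of the others. Exon bases were in peaks more often than intron bases in each stretch, at 5.02% against 0.560%, 2.83% against 1.14% and 25.1% against 4.90%. Without the last stretch, 7 of 8 summits were in an exon. With p below 1e-05, 13 of 14 were.

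The largest exon had the most peaks by number. It is exon 309 of the longest transcript (17.1 kb, chromosome 2 from 76574121 to 76591226), and no coding exon in the annotation is longer. It held 9 peaks with 435 tags and 4.71- to 8.25-fold enrichment, and peaks covered 52.1% of it. The strongest peak of the gene, 88 tags (70.6 to 108) and 8.25-fold from 76580116 to 76582136, was among them. Of the 62 coding exons of 5 kb or more, 32.3% overlapped a peak and the same share an island. By number of peaks this exon came first, but it is also the longest. Shorter exons held more peaks for their length, such as those of Frem2 (6 peaks in 5.14 kb) and Rtl1 (5 peaks in 5.23 kb). The other 2 Ttn exons of that size had 3 peaks and 1 peak. The longest island of the gene, 50.8 kb with 20 MACS peaks, took in this exon whole and ranked 172nd by length among the 23268 islands.

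**Figure D5:**
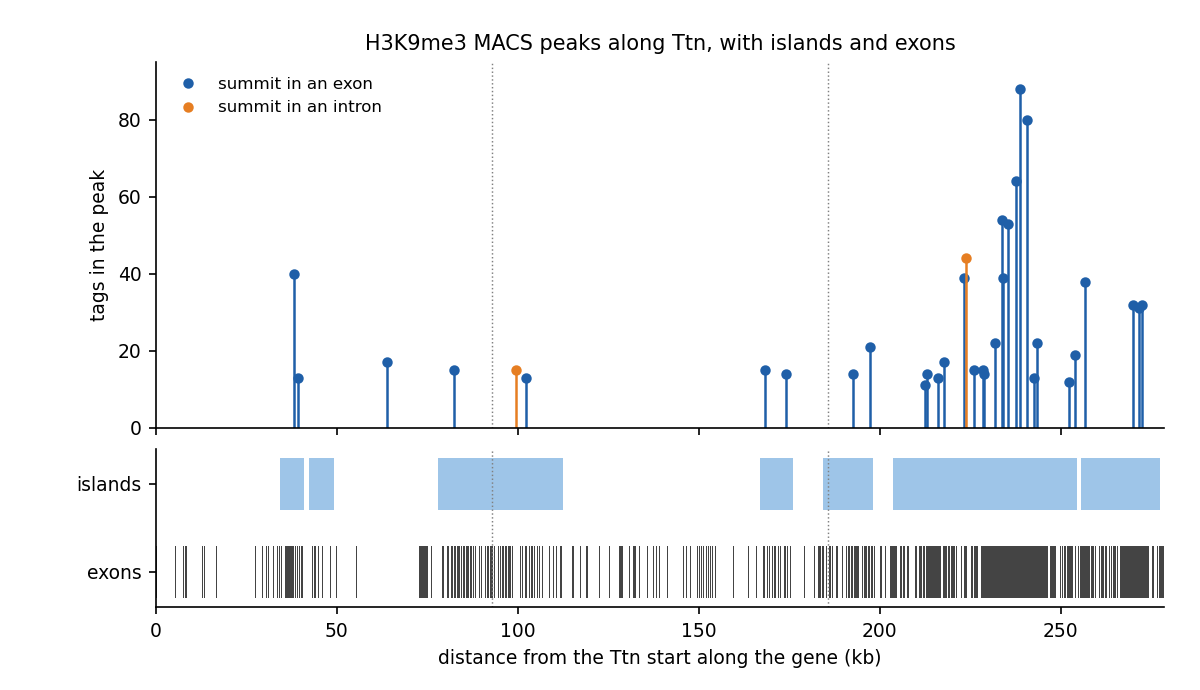
H3K9me3 MACS peaks along Ttn by distance from the gene start in kb (x axis), with the tags of each peak as stems (upper panel, blue for a summit in an exon, orange for one in an intron) and the extents of SICER islands and of the exons of the longest transcript (lower panel). Dotted lines divide the gene into 3 stretches of 92.9 kb. The highest stems, up to 88 tags, stand over the block of the largest exon near 240 kb.

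Base composition and alignability moved with this pattern. Exons of Ttn had 47.0% GC and its introns 37.8%, and 99.3% of 50-base words in exons occurred once in the genome, against 94.6% in introns. For 16 of the 34 peaks (47.1%) the fold was not a whole multiple (within 0.012) of the list's step of 0.687, as happens where the local input background is above the genome rate, against 28.4% of all H3K9me3 peaks. None of the 34 summits had a match on chromosome 19. The part of composition, alignability and input in the exon peaks of Ttn was not tested.

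Genes that work with titin or Ankrd1 were looked up in 4 lists, 42 genes in all. None had a Setdb1 site within 10 kb of a start, which 2.48% of all protein-coding genes had. An H3K9me3 peak within 10 kb of a start was present at 19 of 42 genes (45.2%), against 32.8% of all genes, and an island at 11 (26.2%), against 20.8%. By role, a peak was found at 5 of 10 ligands of N2A or Ankrd1, 5 of 10 partners at the Z-disc, 3 of 13 partners at the A-band and M-band, and 6 of 9 regulators and targets of Ankrd1. The highest were at Gata4, a cardiac transcription factor gene (10.43-fold, 32 tags), Tln1, the talin gene (8.25-fold, 44 tags), Palld, which encodes the actin-binding protein palladin (7.86-fold, 24 tags), and Neb, the nebulin gene (6.87-fold, 29 tags). With Csrp3, Tcap, Fhl1 and Mybpc3, 4 genes (9.52%) had no region within 100 kb, close to the 8.79% of all genes. The median was 5 peaks per window in the lists and 4 over all genes.

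The 48 genes with an Ankrd symbol share the ankyrin repeat and no common function. A Setdb1 site within 10 kb of a start was found at 2 of them (4.17%), Ankrd1 and Ankrd12, against 2.48% of all genes. Ankrd1 had been chosen beforehand with its site known, so Ankrd12 was the only further gene. The Ankrd12 site had 82 tags and was enriched 11.01-fold, with its near edge 9.96 kb and its summit 10.7 kb from a start, under an H3K9me3 peak of 209 tags and 14.6-fold. H3K9me3 peaks were near a start at 23 of 48 genes (47.9%), against 32.8% of all genes, and islands at 16 (33.3%), against 20.8%. By H3K9me3 fold Ankrd12 came first, Ankrd1 followed with 10.86-fold, and then Ankrd24 with 9.62-fold (44 tags) and Ankrd26 with 8.93-fold (43 tags). Ankrd2 was 1 of 4 genes (8.33%) with no region within 100 kb, close to the 8.79% of all genes.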

How the data were processed

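Chromatin immunoprecipitation and sequencing (ChIP-seq) in C2C12 myoblasts was the authors' work. Per the submitters' processing notes and the study's methods, reads were aligned to mm9 with Bowtie 0.12.7, unique alignments were kept, duplicates were removed and peaks were called over input with MACS 1.4. Islands were called with SICER, for which use of an input is not stated. Deposited tag counts are whole reads per peak, not scaled for depth. The fold deposited by the authors is a ratio over the input background of MACS. Scores, as deposited, are −10 log10 of p, and false discovery rates, as deposited, are in percent. The H3K9me3 list reaches down to a score of 30. The Setdb1 list, which does not name its library and per the study came from the most enriched experiment, has a false discovery rate of at most 1%.

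Genes and exons came from GENCODE on NCBIM37, the same assembly. Overlap meant at least 1 bp, and MACS positions count from 1. Members and gene lists were chosen with earlier results of these data known. Named genes were the 4 members, their nearest neighbours and neighbours with a Setdb1 site near a start, the list genes with a Setdb1 site within 10 kb of a start or else the nearest one, up to 4 with the highest H3K9me3 fold there, and the 3 most like Ankrd1. The partner gene nearest to a Setdb1 site is not reported here. Pcgf5, Htr7, Fam178b and the genes without any region were named after their values were seen. Windows, thresholds, distances, flanks and word length were varied. Python 3.11.15, NumPy 2.4.6, pandas 2.3.3, SciPy 1.17.1, numba 0.67.0, pysam 0.24.0, BLAST 2.17.0 and Matplotlib 3.10.9 were used. The interval functions were tested on simulated data and returned 200 of 200 known answers.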

Additional observations from a re-analysis of the deposited data

How the results depend on the processing

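The settings tried for the layout at Ankrd1 could not have changed it. The gene has 1 annotated start, so the outermost start is the same one, 3.70 kb from the summit. The H3K9me3 peak covers 100% of the site, so the site stays shared when at least 50% must be covered. A Setdb1 fold of at least 8, which 37.5% of all Setdb1 sites met, left 1 site, that of Ankrd1, and removed the Cnnm3 site. The 54 H3K9me3 peaks became 23 with p below 1e-05 (4 at Ankrd1, 3 at Ankrd23 and 16 at Ttn), a limit that 38.5% of all H3K9me3 peaks met. They became 0 at a false discovery rate of 1% or less, which 1.04% of all H3K9me3 peaks met. The 13 islands became 20 in windows of 200 kb. Words of 36 bases lowered the uniquely alignable share of the 4 windows to 94.2%, against 96.0% with 50. Partner genes with a peak numbered 32 within 50 kb and 11 with p below 1e-05 (26.2%, against 18.5% of all genes), those with a Setdb1 site 4 within 50 kb, and those with an island 24. Ankrd genes with a peak numbered 14 within 5 kb and 38 within 50 kb. Those with a Setdb1 site numbered 1 (Ankrd1 itself) and 6, and those with an island 27 within 50 kb. Over all genes the shares within 50 kb were 74.4% for a peak, 8.15% for a Setdb1 site and 49.9% for an island, and within 5 kb 20.6%, 1.76% and 14.4%. The share of Ttn summits in exons was 92.9% with p below 1e-05 and 87.5% without the last stretch, settings added once the data had been seen. No paired analysis was possible because there was 1 library in every group. Depth limits the weak regions most: the Cnnm3 site rests on 25 Setdb1 and 13 H3K9me3 tags, and a gene with no listed region may carry signal below the callers' thresholds.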
